A study of Mus musculus with 45 samples.

Results

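The mouse genes with symbols from Zfp930 to Zfp999 were followed in transcriptomes of mouse embryonic stem cells, abbreviated mESCs. Members were all annotated genes with a symbol in that number range, 64 of 55401 genes, without regard to how they were expressed. Of these, 63 were annotated as protein coding and Zfp939 as a transcribed pseudogene. The series held 45 libraries in 15 groups of 3. EHMT2-dTAG mESCs carry a degron on EHMT2, so that the protein is degraded when the compound dTAG is given, and all groups of these cells carry the tag, including those given the solvent DMSO. They were sampled after 24 h or 7 d of DMSO or dTAG, and in a washout experiment after 15 d of DMSO, 15 d of dTAG, or 7 d of dTAG followed by 8 d without it (Recovery). In these experiments the labels name clones E2-17, E2-20 and E2-K71. In a sorting experiment EHMT2-dTAG cells with a MERVL-GFP reporter received DMSO or dTAG for 72 h and were then sorted, the fraction without GFP being called mESC and that with GFP 2CLC (2-cell-like cells), with replicates numbered and no clone named. In the Dppa4 experiment, wild-type J1 mESCs (WT) and Dppa4 knockout mESCs (KO) received DMSO or UNC0638, which blocks the enzymes EHMT1 and EHMT2, over 48 h, and the labels speak of independent clones. Fibroblast feeders from mouse embryos supported the cultures.

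Zinc finger genes of this kind encode proteins with tandem C2H2 fingers that bind DNA. Many of them also carry a KRAB domain, which recruits TRIM28 and through it the H3K9 methyltransferase SETDB1, and which is best known in embryonic stem cells for the silencing of endogenous retroviruses. Such genes multiply by local duplication, so neighbouring copies can be almost identical, and many mouse clusters have no counterpart in humans. EHMT2 deposits H3K9me2, a mark of silent chromatin. 2CLCs are rare cells in mESC cultures that express genes and retroviral elements of the 2-cell embryo, and DPPA4 is a chromatin protein needed for that state.

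Values are read counts divided by DESeq2 size factors, called normalized counts. Time course, washout and sorted cells were analysed here as the authors' mean of each group, so their ratios have no replicate error and no test, and "higher" and "lower" there refer to means. A ratio is given as log2 of (mean + 1) over (mean + 1), for genes with a mean of at least 10 in a group compared, and 2-fold is a log2 ratio of 1. The Dppa4 experiment had values for its 12 libraries, with 8399885 to 12710949 reads in genes per library, and was tested with limma. The labels were checked on markers. Of the 11 2-cell markers (Zscan4c, Zfp352 and others) the summed mean was 151646 in 2CLC against 818 in mESC after DMSO, and 273746 against 10938 after dTAG. Pluripotency markers (8 genes, Pou5f1 and Nanog among them) summed to at least 35763 in all groups given as means. Dppa4 was at 700 to 921 normalized counts in the 6 WT libraries and at 0 in the 6 KO libraries. Fibroblast markers of the feeders (10 genes, Col1a1 among them) were present throughout, with summed means from 4429.5 in 2CLC after DMSO to 18036 in DMSO at 24 h.

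Most members lie in a few genomic runs. In GENCODE vM21 (GRCm38, the build of the files), 43 of the 64 members lay in 5 runs of at least 3 members with starts under 1 Mb apart, and 21 lay outside. The run on chromosome 4 (chr4:145510759-147848366) held 16 members, in order Zfp990, Zfp980, Zfp986, Zfp987, Zfp992, Zfp981, Zfp993, Zfp989, Zfp991, Zfp988, Zfp978, Zfp982, Zfp985, Zfp979, Zfp984 and Zfp933. The run on chromosome 2 (chr2:175372436-178078476) held 10 members, in order Zfp968, Zfp965, Zfp969, Zfp966, Zfp967, Zfp973, Zfp970, Zfp972, Zfp971 and Zfp931. The run on chromosome 17 (chr17:21567008-22867134) also held 10 members, in order Zfp948, Zfp983, Zfp995, Zfp942, Zfp943, Zfp947, Zfp994, Zfp944, Zfp946 and Zfp945. Zfp977, Zfp976, Zfp975 and Zfp936 formed a run on chromosome 7 (chr7:42579783-43192109), and Zfp930, Zfp964 and Zfp963 a run on chromosome 8 (chr8:69209038-69749970). Runs were set by distance and are not claimed to be families.

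The label was checked on the coding sequence. Successive C2H2 fingers are joined by a conserved linker, searched here on the coding strand as CANACNGGNGANAANCC in the longest annotated coding sequence. It was found in 61 of the 63 members with a coding sequence, with a median of 7 linkers and at most 16, in Zfp950. Of 382 neighbouring linker pairs, 298 (78%) lay exactly 84 bases apart, the length of a finger with its linker. Zfp957 and Zfp972 had none, and the longest coding sequence annotated for Zfp972 was 417 bases. To show this repeat, 3 successive linkers with the fingers between them are printed in coding orientation from GENCODE vM21 transcripts, with the linkers in capitals, from Zfp951 (minus strand, chr5:104814923-104815107) and Zfp985 (plus strand, chr4:147583538-147583722), which are returned to at 7 d.
Zfp951: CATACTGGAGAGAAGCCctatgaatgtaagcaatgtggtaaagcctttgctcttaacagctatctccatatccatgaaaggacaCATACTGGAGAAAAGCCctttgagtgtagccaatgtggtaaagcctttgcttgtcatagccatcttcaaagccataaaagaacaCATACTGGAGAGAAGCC
Zfp985: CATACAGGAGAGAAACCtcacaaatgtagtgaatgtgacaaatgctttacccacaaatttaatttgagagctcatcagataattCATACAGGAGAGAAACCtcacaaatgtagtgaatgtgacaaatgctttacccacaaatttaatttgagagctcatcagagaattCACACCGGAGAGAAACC

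Near-identical copies limit what a value says of a single member. The authors kept reads that fit many places and wrote each at a single place. Per the study's methods, top-scoring places came first and the order was otherwise random. The share of a member's 100-base transcript windows that also occur in a transcript of another gene was over 50% for 13 members and under 10% for 37. In the chromosome 2 run, the median share was 76.6%, and all windows of Zfp967 occurred in Zfp966 and all of those of Zfp969 in Zfp968. The chromosome 4 run had a median of 36.7%, with 5 of its 16 members over 50% (Zfp986, Zfp987, Zfp993, Zfp991 and Zfp978), while Zfp985 was at 1.73%, Zfp982 at 3.06% and Zfp981 at 12.2%. Zfp980, which recurs below, was at 45.6%, and shared 39.2% of its windows with Rex2. Medians were 0.699% in the chromosome 17 run, 5.43% in the chromosome 7 run and 0.107% in the chromosome 8 run. Outside the runs Zfp935 (99.3%, with Gm49359) and Zfp960 (68.3%, with Zfp97) were over 50%, while Zfp951 and Zfp961 shared none. For Zfp972 the share was 32%, of which the largest part was with Gm14392. The 13 members over 50% are therefore uncertain as single genes, and 27 members overlap another annotated gene, which matters where reads were counted without regard to strand.

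Promoters of the chromosome 4 run resemble each other too. RefSeq promoters (GRCm38.p6, 250 bases before to 50 after the start) were found for 54 members, and not for Zfp930, Zfp934, Zfp960, Zfp969, Zfp978, Zfp986, Zfp989, Zfp990, Zfp991 and Zfp992. A stretch held by the most promoters of the run was sought on the gene's own strand, from a set shortest length upward. Shorter stretches, which more promoters may hold, were not sought. The longest found was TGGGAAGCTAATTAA, in 8 of the 10 members of the run with a promoter (Zfp979, Zfp980, Zfp981, Zfp982, Zfp984, Zfp985, Zfp987 and Zfp988). In a scan of both strands it occurred in 12 of 32851 promoters (0.0365%), always on the gene's own strand and all on chromosome 4 between 145584950 and 147810038. The other 4 belonged to Gm13212, Rex2, Zfp534 and Zfp600, which are not members. This stretch was picked from the promoters themselves and on that strand, so its count and its strand in the run are a description. At 7 d its holders had both the largest ratio of the run (Zfp985, 1167 in dTAG against 671 in DMSO) and the smallest (Zfp984, 1252 against 1187). Zfp933 and Zfp993, whose promoters lack it, were at 89.3 against 58.7 and at 252 against 212.5. A link of the stretch to expression was not tested. The promoters of Zfp981 (chr4:146514670-146514969), Zfp980 (chr4:145670447-145670746) and Zfp985 (chr4:147553027-147553326), all on the plus strand, are printed with it in capitals because these genes recur in the comparisons.
Zfp981: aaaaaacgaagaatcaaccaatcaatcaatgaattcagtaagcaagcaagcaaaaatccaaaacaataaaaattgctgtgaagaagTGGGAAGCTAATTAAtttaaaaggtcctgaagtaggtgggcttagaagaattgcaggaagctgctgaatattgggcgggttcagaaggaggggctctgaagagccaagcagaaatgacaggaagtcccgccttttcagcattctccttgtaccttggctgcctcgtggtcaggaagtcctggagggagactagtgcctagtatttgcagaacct
Zfp980: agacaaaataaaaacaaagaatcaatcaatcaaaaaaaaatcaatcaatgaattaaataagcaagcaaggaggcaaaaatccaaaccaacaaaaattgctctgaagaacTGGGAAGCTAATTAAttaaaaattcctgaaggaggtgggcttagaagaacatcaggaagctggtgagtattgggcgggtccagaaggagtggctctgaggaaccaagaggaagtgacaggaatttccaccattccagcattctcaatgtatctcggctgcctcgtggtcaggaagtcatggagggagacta
Zfp985: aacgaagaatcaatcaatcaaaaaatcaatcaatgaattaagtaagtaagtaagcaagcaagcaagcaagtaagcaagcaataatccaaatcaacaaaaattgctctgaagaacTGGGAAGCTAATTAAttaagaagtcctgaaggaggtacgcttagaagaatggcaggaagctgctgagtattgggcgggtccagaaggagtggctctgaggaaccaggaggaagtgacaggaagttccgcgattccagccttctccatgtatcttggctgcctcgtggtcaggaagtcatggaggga
For contrast, the promoters of Zfp972 (minus strand, chr2:177925601-177925900) and Zfp961 (plus strand, chr8:71950816-71951115), the members with the largest ratio in 2CLCs and the only call in the Dppa4 experiment, do not hold the stretch.
Zfp972: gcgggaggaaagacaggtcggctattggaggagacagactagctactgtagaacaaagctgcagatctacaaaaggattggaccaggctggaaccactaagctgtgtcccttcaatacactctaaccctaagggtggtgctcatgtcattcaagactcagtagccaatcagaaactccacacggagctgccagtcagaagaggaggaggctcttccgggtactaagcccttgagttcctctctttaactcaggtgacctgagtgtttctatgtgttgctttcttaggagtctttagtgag
Zfp961: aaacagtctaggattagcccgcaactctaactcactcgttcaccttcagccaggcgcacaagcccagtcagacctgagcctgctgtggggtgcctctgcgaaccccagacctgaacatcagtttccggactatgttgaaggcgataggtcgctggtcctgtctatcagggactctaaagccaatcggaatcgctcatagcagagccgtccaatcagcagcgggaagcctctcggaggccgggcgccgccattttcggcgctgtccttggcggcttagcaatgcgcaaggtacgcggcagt
They also differ in CG pairs, with 21 in the promoter of Zfp961 and 4 in that of Zfp972. The median number of CG pairs was 4.5 in the chromosome 4 run, 5 in the chromosome 2 run, 10.5 in the chromosome 17 run and 7 over the 27025 genes with a promoter.

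Almost all members were expressed in mESCs. In DMSO at 24 h, 63 of the 64 members had a mean of at least 10 normalized counts, and Zfp957 was at 0 in 7 of the 11 groups given as means, at most at 0.936 in the other groups, and at 0 in the 12 libraries of the Dppa4 experiment. Per kb of exon, the median level of the members was 54 normalized counts in DMSO at 24 h. In WT cells given DMSO the highest means were those of Zfp961 (623, SD 164, n = 3), Zfp954, Zfp979, Zfp990 and Zfp941, and per kb of exon Zfp961 (143.7) and Zfp954 (102.5) remained the highest. The leading members differed between experiments, since Zfp979 had the highest mean in the time course (1522 in DMSO at 24 h), Zfp961 in the washout experiment (1362 in DMSO), and Zfp988 in 2CLCs (1507 after DMSO). The experiments were scaled apart, so these levels are not compared further. Per the study's methods, the time course and washout used the same library kit, and the sorted cells and the Dppa4 experiment other preparations.

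Loss of EHMT2 for 24 h left all members within 2-fold. The median log2 ratio of dTAG over DMSO was 0.19 over 63 members, against 0.00 over 18451 genes, and 47 of the 63 were above 0. No member was past 2-fold in either direction, where 3.58% of all genes were at least 2-fold higher and 2.11% at least 2-fold lower. The largest ratio was that of Zfp981, whose mean was 1012 in dTAG and 631 in DMSO (log2 ratio 0.68). Zfp939 (0.63), Zfp980 (0.61), Zfp948 (0.58) and Zfp930 (0.57) followed. The smallest were -0.39 for Zfp974, with means of 97.3 and 128, then Zfp964, Zfp983, Zfp963 and Zfp961 from -0.35 to -0.27. Cell markers moved in the same comparison. The 2-cell markers summed to 2467.5 in dTAG against 195.3 in DMSO, with all 9 that had a ratio at least 2-fold higher, while the feeder markers summed to 16944 against 18036, with 5 of 9 above 0 and 1 past 2-fold in each direction. Their part in the members' ratios was not tested, here and at 7 d and 15 d of dTAG.

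At 7 d Zfp951 stood apart. Its mean was 471 in dTAG against 159 in DMSO (log2 ratio 1.56), whereas at 24 h it had been 172 against 190.3. It was the only member past 2-fold of 63, where 5.38% of all genes were at least 2-fold higher and 4.56% at least 2-fold lower. The chromosome 4 run was higher as a whole by smaller amounts. All 16 of its members had a ratio above 0, with a median of 0.47 and a summed mean of 19140 in dTAG against 13812 in DMSO. Its largest ratios were those of Zfp985 (1167 against 671, log2 ratio 0.80), Zfp981 (1530.0 against 902, 0.76) and Zfp982 (179.5 against 107, 0.74). Medians of the other runs were 0.17 on chromosome 2, 0.05 on chromosome 17, 0.33 on chromosome 7 and -0.17 on chromosome 8. At least 1.5-fold higher, a limit chosen after the ratios were seen, were 10 of 63 members, 7 of them in the chromosome 4 run, against 10.5% of all genes. Zfp936, in the chromosome 7 run, was at 0.78, and at the low end stood Zfp964 (-0.53), Zfp956 (-0.39), Zfp972 (-0.36), Zfp974 (-0.35) and Zfp983 (-0.34). All 11 of the 2-cell markers were at least 2-fold higher in dTAG at 7 d (median log2 ratio 4.42, summed means 7582 against 316). All 8 feeder markers with a ratio were above 0, with a median of 0.65, 2 past 2-fold and summed means of 15707 against 13064.

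The DMSO groups of the time course also differed between themselves. In DMSO cells the mean at 7 d over that at 24 h had a median log2 ratio of 0.25 over 63 members, against 0.00 over 18204 genes, with 52 above 0 and all 16 of the chromosome 4 run among them. None was past 2-fold, where 0.862% of all genes were at least 2-fold higher and 1.49% at least 2-fold lower. Zfp948 had the largest ratio at 0.90 (414 against 221), followed by Zfp980 at 0.69 (1782 against 1102). Zfp951, in contrast, was at -0.25 in this comparison. The effects at 7 d are read against DMSO of the same day. This comparison shares DMSO groups with the dTAG comparisons.

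**Figure D1:**
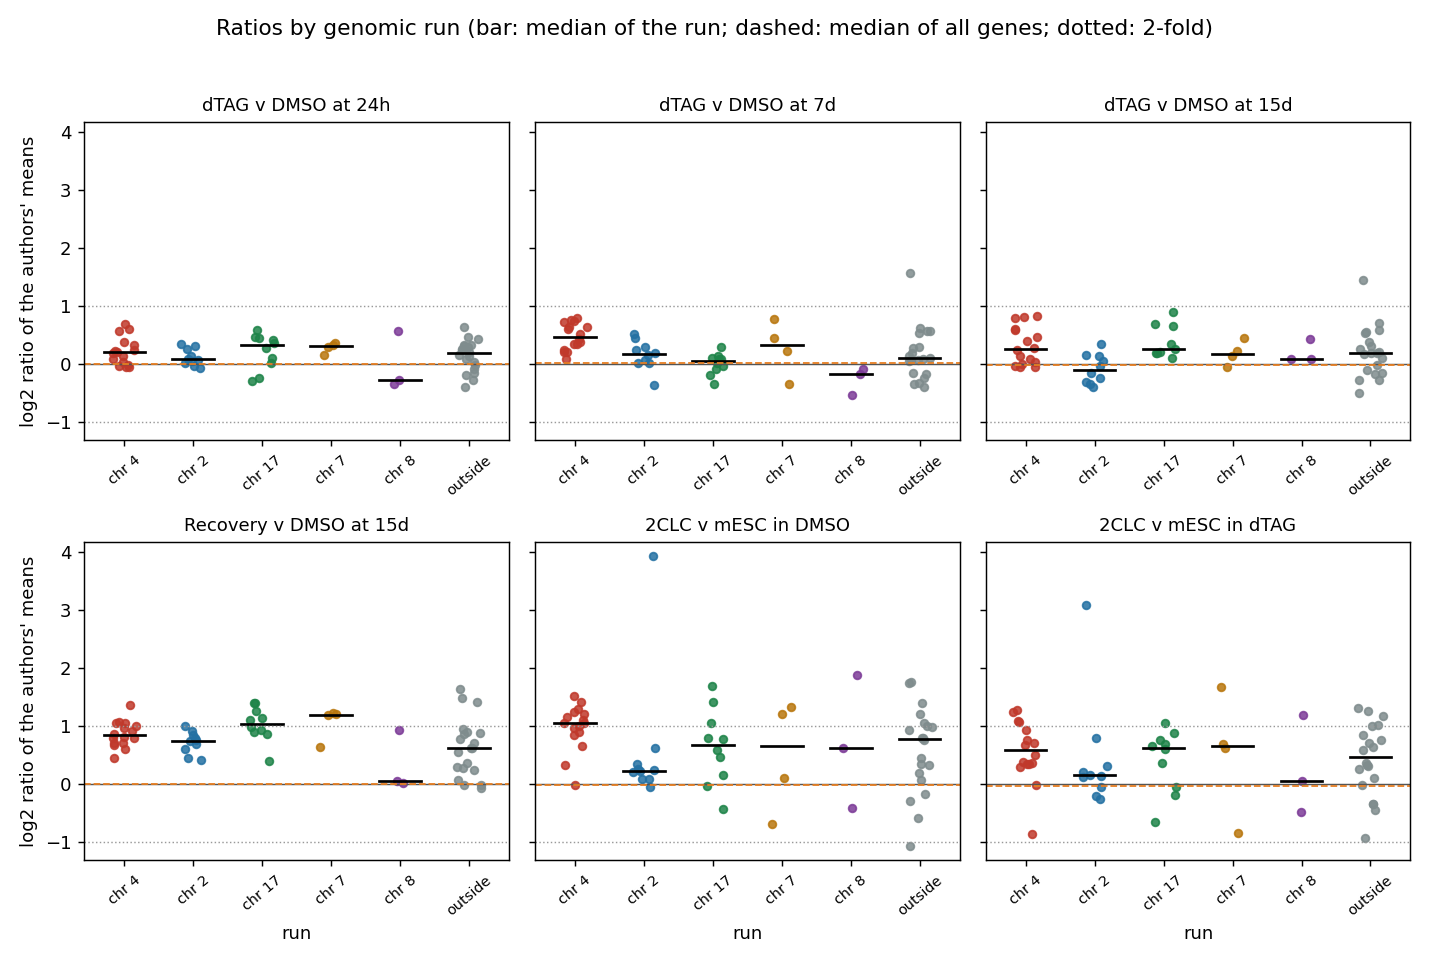
Each point is a gene, placed by its genomic run (x axis), with the log2 ratio of the authors' group means on the y axis, for 6 comparisons; the bar is the median of the run, the dashed line the median of all genes and the dotted lines mark 2-fold. At 7 d all 16 genes of the chromosome 4 run lie above 0 and Zfp951 lies at 1.56 outside the runs, after washout 60 of 63 genes lie above 0, and in 2CLCs Zfp972 stands at 3.92.

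After 15 d of dTAG, in the washout groups, Zfp951 was again the leading member. These groups were scaled apart but carry the same clone labels as the time course, so they are not an independent repeat. The mean of Zfp951 was 278 in dTAG against 102 in DMSO (log2 ratio 1.44), and it was the only member past 2-fold, of 62, where 5.48% of all genes were at least 2-fold higher and 0.856% at least 2-fold lower. The median was 0.18 over the members and -0.02 over 17869 genes, with 44 of 62 members above 0. Zfp946 (0.90, 51.5 against 27.2), Zfp981 (0.83, 213 against 119), Zfp985 (0.81) and Zfp982 (0.80) followed. On chromosome 4 the run had a median of 0.26 with 12 of 16 members above 0, and the chromosome 2 run one of -0.10 with 4 of 10. All 11 of the 2-cell markers were at least 2-fold higher here too (median 4.61), and 7 of 8 feeder markers were above 0 (median 0.36, none past 2-fold). Lowest were Zfp956 (-0.51, 195 against 278), Zfp973, Zfp970, Zfp967 and Zfp974. Over the dTAG comparisons of 24 h, 7 d and 15 d, 25 members were above 0 in each and 1 member, Zfp974, was below 0 in each. The shares of all genes above or below 0 in each were not counted, so these numbers have no background.

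Recovery cells had more of these transcripts than either of the other washout groups, as judged by group means. Against DMSO at 15 d, 60 of 63 members were higher, with a median log2 ratio of 0.81, where the median was -0.01 over 17365 genes and 0.14 over 291 other numbered Zfp genes. At least 2-fold higher were 15 members (23.8%), against 1.6% of all genes and 5.5% of the other numbered Zfp genes, and none was at least 2-fold lower, against 1.25% of all genes. At the limit of 1.5-fold the count was 48 of 63, against 6.34% of all genes. The summed mean of all members was 13105 in Recovery, 9255 in dTAG and 8453 in DMSO. The spread of this sum between washout libraries is not known. In the Dppa4 experiment members moved together between libraries of a group, and their sum ran from 2398 to 4540 within WT DMSO. The counts of members are therefore not counts of independent values, and whether single libraries gave the difference was not tested.

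The higher means were spread over the runs. The 5 largest ratios were those of Zfp937 (81.2 against 25.4, log2 ratio 1.64), Zfp951 (287 against 102, 1.48), Zfp960 (220.2 against 82.1, 1.41), Zfp994 (25.3 against 8.95, 1.40) and Zfp946 (73.1 against 27.2, 1.40). Zfp981 (1.36), Zfp947 (1.26), Zfp977 (1.22), Zfp975 (1.20), Zfp976 (1.18), Zfp943 (1.13), Zfp945 (1.10), Zfp982 (1.06), Zfp979 (1.05) and Zfp980 (1.04) were the other members past 2-fold. By run the median was 1.19 on chromosome 7 (4 members), 1.04 on chromosome 17, 0.84 on chromosome 4, 0.74 on chromosome 2 and 0.04 on chromosome 8. A few members were level. Zfp961 had means of 1330.2 in Recovery and 1362 in DMSO (log2 ratio -0.03), Zfp954 of 285 and 299.7 (-0.07), and Zfp956 of 272 and 278 (-0.03), while Zfp964 (0.02) and Zfp963 (0.04) were also near 0.

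Against dTAG at 15 d, with which the comparison above shares the Recovery group, 60 of 63 members were again higher in Recovery, with a median of 0.58 against 0.03 over 17936 genes. Past 2-fold were 7 members, where 1.44% of all genes were at least 2-fold higher and 6.99% at least 2-fold lower, and with a pseudocount of 5 in place of 1 the count was 4. They were Zfp947 (1.43, 18.3 against 6.15), Zfp994 (1.22), Zfp960 (1.10), Zfp937 (1.09, 81.2 against 37.5), Zfp976 (1.05), Zfp970 (1.01) and Zfp977 (1.01). Zfp951 was as high in Recovery as in dTAG, at 287 and 278 (log2 ratio 0.04), and Zfp933 (0.01), Zfp963 (-0.04), Zfp964 (-0.07) and Zfp959 (-0.23) were the other lowest. The 2-cell markers took a different course, with summed means of 580.5 in DMSO, 14856 in dTAG and 930.2 in Recovery. Feeder markers moved with Recovery, with a summed mean of 5691 against 11627 in DMSO and 14349 in dTAG, and 6 of the 8 with a ratio were at least 2-fold lower than in DMSO, while 1 of the 10 was at 0 in Recovery. The pluripotency markers summed to 83588 in Recovery, 75561 in DMSO and 67038 in dTAG. The part of these cell markers in the result was not tested, and fewer cells of a type and less RNA per cell cannot be told apart in such samples.

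**Figure D2:**
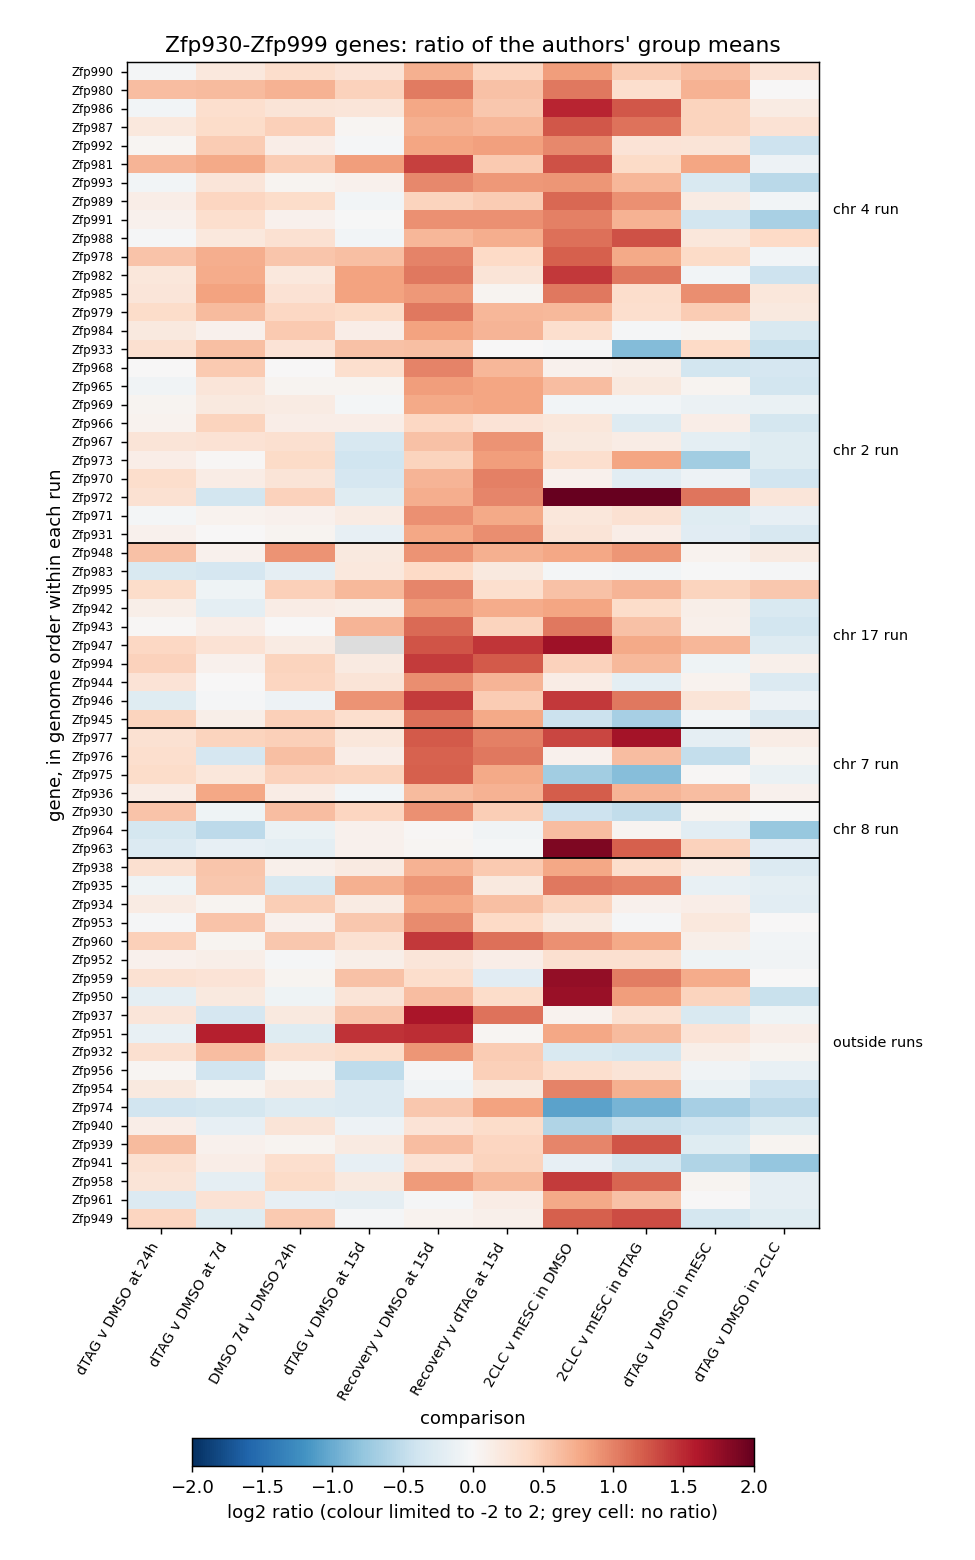
Log2 ratio of the authors' group means for 63 genes (rows, in genome order within each run) in 10 comparisons (columns), with red for higher and blue for lower in the group named first, colours limited at -2 and 2, and grey where both means were under 10. The column of Recovery v DMSO is red in nearly all rows, and Zfp972 is the darkest row in both 2CLC columns.

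Sorted 2CLCs differed from mESCs in part of the members. After DMSO, 22 of 63 members were at least 2-fold higher in 2CLCs (34.9%), against 17% of all genes and 11.9% of 294 other numbered Zfp genes, and Zfp974 was at least 2-fold lower, against 9.42% of all genes. At least 1.5-fold higher were 36 members, against 24.5% of all genes. The median log2 ratio was 0.77 over the members, -0.02 over 18303 genes and 0.09 over the other numbered Zfp genes. By far the largest ratio was that of Zfp972, with a mean of 159.9 in 2CLCs and 9.62 in mESCs (log2 ratio 3.92). Zfp963 (118 against 31.7, 1.87), Zfp959 (167 against 48.9, 1.75), Zfp950 (140.5 against 41.7, 1.73), Zfp947 (37.8 against 11.1, 1.69) and Zfp986 (143 against 49.2, 1.52) followed. Zfp986 shares 70% of its windows with other genes, while Zfp950 shares none.

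Members of the chromosome 4 run were higher in 2CLCs as a group, with a median of 1.05, 15 of 16 members above 0 and 10 past 2-fold. Besides Zfp986 these were Zfp982 (1.41), Zfp981 (1.28), Zfp987 (1.24), Zfp978 (1.20), Zfp989 (1.15), Zfp988 (1.10), Zfp985 (1.05), Zfp980 (1.05) and Zfp991 (1.00). Its summed mean was 9414 in 2CLCs and 4831 in mESCs. On chromosome 2 the run had a median of 0.22 and Zfp972 as its sole member past 2-fold. The other members past 2-fold were Zfp946 (1.41) and Zfp943 (1.05) on chromosome 17, Zfp977 (1.33) and Zfp936 (1.21) on chromosome 7, and Zfp958 (1.40, 624 against 236), Zfp949 (1.20) and Zfp935 (1.05) outside the runs. Lower in 2CLCs were Zfp974 (33.8 against 71.8, -1.07), Zfp975 (97.7 against 158, -0.69), Zfp940 (-0.60), Zfp945 (-0.43) and Zfp930 (-0.42). Zfp975 and Zfp977 are neighbours in the chromosome 7 run and stood on opposite sides.

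After dTAG, 13 of 63 members were at least 2-fold higher in 2CLCs, against 16% of all genes, and none was at least 2-fold lower, against 7.55%. At least 1.5-fold higher were 29 members, against 23.1% of all genes. The median was 0.38, against -0.04 over 18244 genes. Zfp972 was again first, with means of 189.5 and 21.3 (log2 ratio 3.09), followed by Zfp977 (214 against 66.9, 1.66), Zfp949 (1.30), Zfp988 (1.27), Zfp939 (1.26, 31.8 against 12.7), Zfp986 (1.24), Zfp963 (1.19), Zfp958 (1.17), Zfp987 (1.08), Zfp982 (1.06), Zfp946 (1.05), Zfp959 (1.02) and Zfp935 (1.00). Members at least 2-fold higher in 2CLCs after both treatments numbered 12, and the share of all genes past 2-fold after both was not counted. Lowest were Zfp974 (-0.93), Zfp933 (-0.86), Zfp975 (-0.85), Zfp945 (-0.66) and Zfp930 (-0.49). For the chromosome 4 run the median was 0.58 here. In both treatments pluripotency markers were lower in 2CLCs, with summed means of 35763 against 59068 after DMSO and 36430.4 against 50338 after dTAG. Of the 8 feeder markers with a ratio, 7 were higher in 2CLCs than in mESCs after either treatment, with a median log2 ratio of 0.86 and 2 past 2-fold after DMSO and of 1.10 and 5 past 2-fold after dTAG. Fn1 was the exception (-0.98 and -0.50), and the sums went the other way, at 4429.5 in 2CLCs against 6687 in mESCs after DMSO and 8006 against 8489.5 after dTAG. The part of these markers in the members' ratios was not tested.

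Within each sorted fraction few members differed after dTAG. In mESCs the median was 0.05 over 63 members and 0.01 over 17142 genes, and Zfp972 alone was past 2-fold (21.3 against 9.62, log2 ratio 1.07), where 5.93% of all genes were at least 2-fold higher and 2.58% at least 2-fold lower. In the chromosome 4 run the median was 0.39 with 13 of 16 members above 0, led by Zfp985 (513 against 269.5, 0.93), Zfp981 (0.79) and Zfp980 (0.70), and Zfp959 outside it was at 0.74. Lowest were Zfp973 (-0.70), Zfp974 (-0.66), Zfp941 (-0.60), Zfp976 (-0.47) and Zfp940 (-0.40). The 2-cell markers were also higher in the GFP-negative cells after dTAG (summed means 10938 against 818, all 11 at least 2-fold higher). The feeder markers were higher after dTAG in both fractions, with a median of 1.13 in mESCs, where 8 of 8 were above 0 and 5 past 2-fold, and of 1.32 in 2CLCs, where 7 of 8 were above 0 and 6 past 2-fold. The part of these markers in the ratios was not tested. In 2CLCs the median was -0.17 over 63 members and 0.01 over 18281 genes, no member was past 2-fold, where 5.99% of all genes were at least 2-fold higher and 3.04% at least 2-fold lower, and 17 of 63 were above 0. Zfp995 had the largest ratio (0.54), then Zfp988, Zfp987, Zfp990 and Zfp972 from 0.40 to 0.24, and Zfp941 (-0.78), Zfp964 (-0.76), Zfp991 (-0.65), Zfp993 (-0.54) and Zfp974 (-0.53) the smallest. The sorted comparisons share groups with each other, and the difference between the fractions was not tested.

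**Figure D3:**
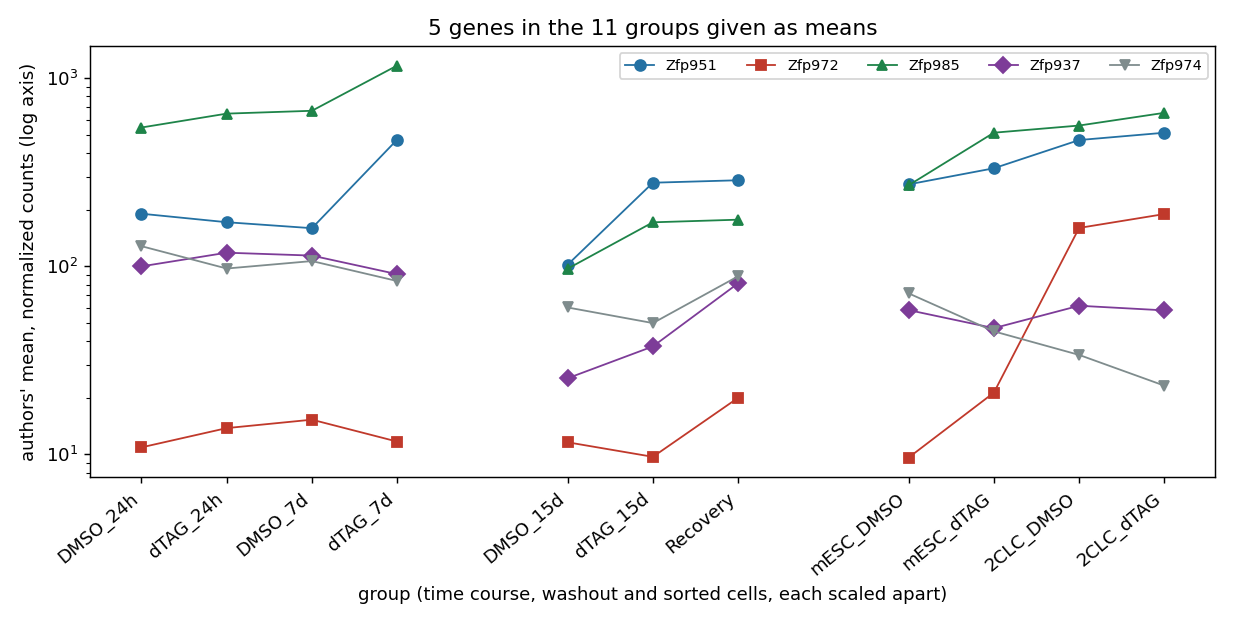
The authors' means, in normalized counts on a log axis, of Zfp951, Zfp972, Zfp985, Zfp937 and Zfp974 in the 11 groups of the time course, washout and sorted cells, each experiment joined by its own line because it was scaled apart. Zfp951 is higher at 7 d and 15 d of dTAG (471 and 278) than in DMSO of the same day, Zfp937 is highest in Recovery (81.2) within its experiment, and Zfp972 is above 100 in the 2CLC groups alone.

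In the Dppa4 experiment a single member passed the test in a single contrast. Zfp961 had 439.8, 758 and 671 normalized counts in the WT libraries given DMSO and 242, 244 and 379.6 in the KO libraries given DMSO. Zfp961 was lower in KO by 1.11 on the log2 scale (SE 0.27, 95% interval of the log2 fold -1.69 to -0.52, adjusted p = 0.025 by limma). It was the only member called of 61 tested, where 4.43% of 17258 genes were called (adjusted p under 0.05 and at least 2-fold). The members as a set leaned the other way, with a median log2 fold of 0.28, against -0.03 over all genes, and 42 of 61 above 0. By limma 6 members (9.84%), 5 of them higher in KO, and 4158 genes (24.1%) had an unadjusted p under 0.05. edgeR and DESeq2 also called Zfp961 alone of the members in this contrast, and neither called a member in any other. The call rested on most libraries. It was lost without WT DMSO replicate 2 (-0.95, adjusted p = 0.121), WT DMSO replicate 3 (-1.03, adjusted p = 0.0828), KO DMSO replicate 1 (-1.0, adjusted p = 0.108) or KO DMSO replicate 2 (-1.0, adjusted p = 0.092), all by limma. With UNC0638 the values were 785, 701 and 890.2 in WT and 391, 730.0 and 348 in KO, which overlap, and the log2 fold of KO over WT was -0.77 (SE 0.27, adjusted p = 0.124 by limma). Feeder markers summed to 7939 to 10520 in WT DMSO libraries and 5522 to 6481 in KO DMSO libraries, and their part in the result was not tested.

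UNC0638 gave no member call in either genotype. In WT the median log2 fold was 0.60 over 61 members and 0.00 over 17258 genes, with 54 of 61 above 0. No gene at all was called in that contrast (0% of 17258), though 1504 genes (8.71%) and 5 members (8.2%) had an unadjusted p under 0.05. DESeq2 called 14 genes and edgeR 0 there. Zfp953 came closest, with 0, 20.9 and 33.2 normalized counts in DMSO and 80.1, 41.1 and 84.6 in UNC0638. Its log2 fold was 2.87 (SE 0.90, unadjusted p = 0.00562, adjusted p = 0.563 by limma). Zfp951, the leading member at 7 d of dTAG, had 3.49, 8.61 and 2.62 in DMSO and 25.5, 5.61 and 24.8 in UNC0638, which overlap. Zfp985 had 12.8, 142 and 92.7 in DMSO and 106, 69.1 and 210.0 in UNC0638.

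In KO the UNC0638 effect had a median of 0.05 over the members, with 33 of 61 above 0 and none called, where 0.464% of genes were called. By limma 2 members (3.28%) and 2664 genes (15.4%) had an unadjusted p under 0.05 in this contrast, and the smallest adjusted p of a member was 0.22. In KO over WT with UNC0638, 6 members (9.84%) and 3460 genes (20%) had an unadjusted p under 0.05 by limma. No member was called there, where 3.29% of genes were called (member median -0.24, smallest adjusted p 0.124 by limma). Nor was a member called in the difference of the UNC0638 effects, where 0% of genes were called by limma (1076 with an unadjusted p under 0.05, and 0 calls by edgeR and DESeq2) and the smallest adjusted p of a member was 0.775 by limma (5 members with an unadjusted p under 0.05). The lowest value of that difference was that of Zfp994, which had 4.89, 5.09 and 25.5 normalized counts in KO DMSO and 0, 0 and 3.49 in KO UNC0638 (difference -4.09, SE 1.45). Zfp972, with at most 16 normalized counts in any of the 12 libraries, gave no call, and its few reads limit what could be detected. The 2-cell markers were at or near 0 in KO libraries (summed 0 to 3.49) and at 113 to 7135 in WT.

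The members varied widely between libraries of a group. Their summed value was 2398, 4540.0 and 4420 in WT DMSO, 5624, 3391 and 6737 in WT UNC0638, 3522, 2775.5 and 5844 in KO DMSO, and 3211, 5424 and 3471 in KO UNC0638. The ranges of the 4 groups overlap. Within these sums the chromosome 4 run ranged from 506 in WT DMSO replicate 1 to 2963 in WT UNC0638 replicate 3. Members moved together within a group. In WT DMSO, 43 of 61 members (70.5%) were lowest in replicate 1, against 38.3% of all genes tested, and in WT UNC0638 43 were lowest in replicate 2, against 29.4%. In KO DMSO 47 members (77%) were highest in replicate 3, against 33.4%, and in KO UNC0638 44 (72.1%) in replicate 2, against 29.3%. The median standard error of a log2 fold was 0.63 for the members, 0.30 for all genes, and 0.46 for 4863 other genes with a mean in the members' interquartile range, 15.1 to 88.9 normalized counts. The p-values measure the spread between these libraries. Such shared shifts cannot be seen in the groups given as means, where counts of members are likewise not counts of independent values.

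**Figure D4:**
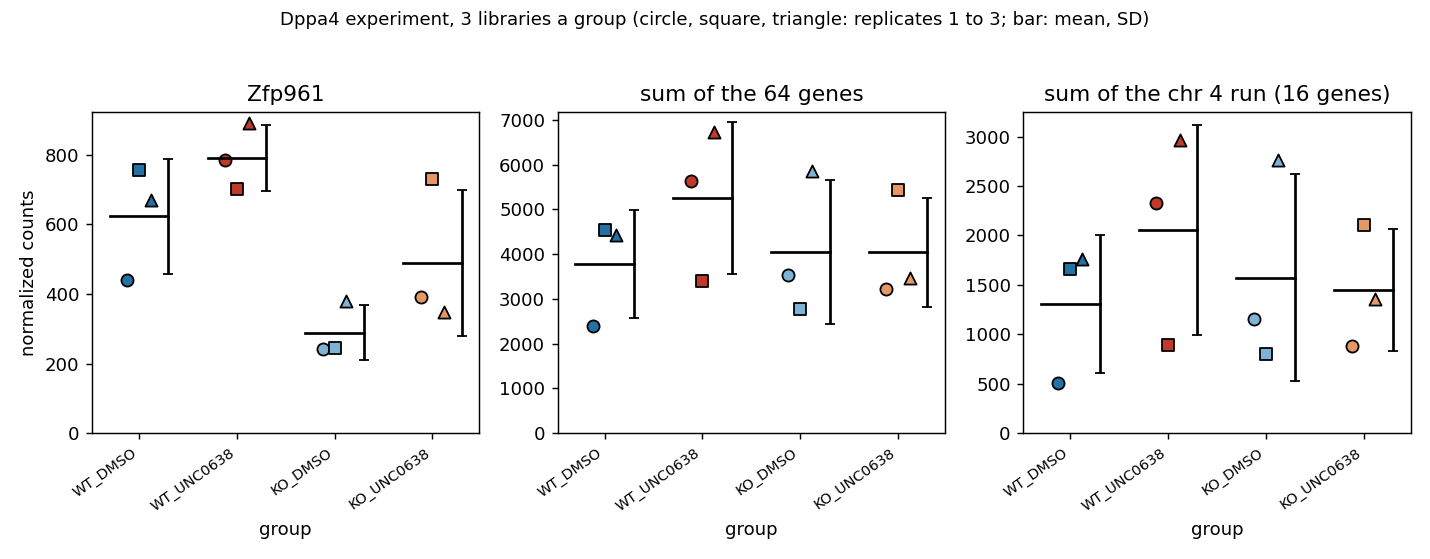
Normalized counts in the 12 libraries of the Dppa4 experiment (y axis, from 0) by group (x axis), for Zfp961, for the sum of the 64 genes and for the sum of the 16 genes of the chromosome 4 run; symbols are replicates 1 to 3, the bar is the mean and the error bar the SD (n = 3). Zfp961 is lower in all 3 KO DMSO libraries (242 to 379.6) than in the WT DMSO libraries, while the sums overlap between all groups.

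Transcripts of the proteins that KRAB zinc fingers work through were within 2-fold of DMSO in the time course and washout. Of the 14 listed partners (Trim28, Setdb1, Atf7ip, the HP1 genes Cbx1, Cbx3 and Cbx5, Dnmt1, Uhrf1 and others), none was past 2-fold in the time course or the washout experiment. Their median log2 ratio was 0.07 at 7 d of dTAG and 0.18 in Recovery over DMSO. In 2CLCs 1 of 14, Atf7ip, which stabilises SETDB1, was past 2-fold at 1.07 after DMSO and 1.01 after dTAG. In the Dppa4 experiment Cbx5 was called lower in KO than in WT with UNC0638 and no other partner was called in any contrast. A list of 10 other zinc finger genes outside the number range had a median of -0.30 in 2CLCs over mESCs after DMSO and of -0.23 after dTAG, with 3 of 10 above 0 in each. After DMSO the 3 above 0, Zfp809, Zfp708 and Zfp600, were each at least 2-fold higher in 2CLCs, and the lowest ratio was that of Zfp819 (-1.18). After dTAG Zfp809 alone of the list was past 2-fold. Zfp809, which silences retroviruses by way of their primer binding site, was at 3.20 in 2CLCs over mESCs after DMSO and at 3.30 after dTAG. Zfp600 was at 1.05 at 7 d of dTAG, 0.92 in Recovery over DMSO and 1.01 in mESCs of the sort after dTAG. In the Dppa4 experiment Gm15446 alone of these 10 was called, lower in KO than in WT with UNC0638. Neither gene is free of sequence shared with members. Zfp600 holds 7.95% of the transcript windows of Zfp981 and 10.8% of those of Zfp979, and Gm15446 holds 17.7% of those of Zfp932.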

How the data were processed

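RNA-seq libraries were measured in 15 groups of 3. Per the submitters' processing notes and the study's methods, the authors trimmed reads with Trim Galore 0.6.7 and aligned them to mm10 with STAR 2.7.10. Introns were not allowed, and reads with many places were kept and written at a single place, top-scoring first and otherwise in random order. Reads were counted with TEcounts on GENCODE vM25 and scaled with DESeq2 1.34.0. The study's methods state default parameters for this counting and do not name the strand setting. The deposited signal values are counts divided by size factors, as group means for 3 experiments and per library for the Dppa4 experiment. Whole reads were recovered there for 100% of values (tolerance 0.01 of a read). Deposited tables of the authors' fold changes, p-values and gene lists, and tables of repeat families, were not used.

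Members and lists were chosen with earlier results of these data known. Named are members with an adjusted p under 0.05, those past 2-fold or among the 5 largest and 5 smallest ratios of a comparison, the 5 highest in WT DMSO, those at 0 in a table, and those in runs; genes named beyond this and the printed sequences were chosen after their values were seen. limma 3.58.1 with a trend was fitted to log2(normalized count + 1) of 17258 genes passing edgeR's filterByExpr, with 4 groups and Benjamini-Hochberg adjustment over all genes. edgeR and DESeq2 on recovered reads, other pseudocounts, filters and scalings, a block on replicate numbers and fits leaving out single libraries were alternatives. Same-numbered libraries of WT DMSO and WT UNC0638 deviated from their group means together over all genes (correlations 0.246, 0.103 and 0.431, each the highest for its own number), so these numbers were taken as pairs from the data and not from the labels. Between the KO groups the correlations were 0.154, -0.092 and 0.013, and between genotypes -0.086 to 0.124, which were not. The main limma fit used no pairs. The blocks among the alternatives paired KO libraries too, or numbers across genotypes, so no fit paired the WT libraries alone. The code of the fits was checked on simulated counts with large changes, which says nothing of its power for these genes.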

Additional observations from a re-analysis of the deposited data

How the results depend on the processing

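For the ratios of group means, 176 of 184 results under other settings (pseudocounts 0.5 and 5, a mean of at least 1 or 50, centring on the median of all genes) stayed within 0.1 log2 or, for counts, within 1.5 times. With a mean of at least 50 the median of the members in 2CLC over mESC after dTAG was 0.54. At the 1.5-fold limit, chosen after seeing the data, 48 members were higher in Recovery over DMSO, 36 in 2CLC after DMSO and 29 in 2CLC after dTAG. With a pseudocount of 5 Zfp972 was at 3.50 and 2.89 in 2CLC after DMSO and dTAG and at 0.85 in mESC after dTAG, where it was no longer past 2-fold, Zfp974 was no longer past 2-fold, and the members at least 2-fold higher in Recovery over dTAG numbered 4. Leaving out the members that share over 50% of their windows, added after seeing the data, moved no median by over 0.1. No paired analysis was possible because the time course, washout and sorted tables hold group means, and no library of these could be left out.

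In the Dppa4 experiment the 54 results under other pseudocounts, filters, scaling, tools, fold limit and the block kept their side of the threshold. Over all genes, the calls for UNC0638 in KO numbered 80 by limma, 37 by edgeR, 285 by DESeq2, 155 with the block and 12 with no filter, and those of KO over WT with UNC0638 567 by limma and 868 by DESeq2. With a replicate block, 0 members were called in each UNC0638 contrast and in their difference, and in KO over WT 1 in DMSO and 0 with UNC0638. The numbers were taken as pairing the WT libraries alone, for which no block of their own was fitted. Leaving out single libraries gave 0 to 1 member calls in KO over WT in DMSO (Zfp961 from -1.34 to -0.95) and 0 to 2 with UNC0638, where Zfp961 and Zfp978 were called without KO UNC0638 replicate 2. Members had few reads in the Dppa4 experiment, and the cause of these changes was not tested.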
